A study of Mus musculus with 40 samples.

Results

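The genes described here encode the cytosolic and mitochondrial chaperones of mouse skeletal muscle together with the J-proteins and the chaperonin TRiC. They were chosen by name. The rule took genes of the Dnaja, Dnajb and Dnajc series other than Dnaja1, Dnajb1, Dnajb9, Dnajb11, Dnajc3 and Dnajc10, the chaperonin subunits Cct2 to Cct8 with Cct6a, and Tcp1, Hspa4, Hspa4l, Hspa9, Hspd1, Hspe1, Hsp90aa1, Hsp90ab1, Trap1, Serpinh1, Stip1 and Ahsa1. It found 56 of the 23621 genes in the table. No measured value entered the choice. By role, 37 are J-proteins, 8 are TRiC subunits, 5 belong to HSP90 and its co-chaperones, 3 work in the mitochondrial matrix, 2 are of the HSP110 type and 1, Serpinh1, is a collagen chaperone. Serpinh1 works in the endoplasmic reticulum, although the rule groups it with the others.

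The mice were C57BL/6, with no genetic change named in the labels. Times are zeitgeber times (ZT, hours after lights on). Quadriceps came from mice that ran on a treadmill to exhaustion and from sedentary mice, with 3 libraries in each of 8 groups. Runners of the morning session were taken at once, labelled ZT0.5 (TM +0h ZT0), or 3 h later, labelled ZT3.5 (TM +3h ZT0). Runners of the evening session were taken at ZT12.5 (TM +0h ZT12) or ZT15.5 (TM +3h ZT12). Sedentary mice were taken at ZT0, ZT4, ZT12 and ZT16 (Sed). Gastrocnemius came from mice with a running wheel open by day (Day) or by night (Night), taken at ZT4 or ZT16, with 4 libraries in each of 4 groups. No gastrocnemius group was without a wheel. The labels call the muscles glycolytic and give neither age nor running distance. Libraries carry separate animal tags in their descriptions, so p-values measure the spread between animals as far as those tags do. A library held 27352875 to 79491649 estimated counts in quadriceps and 45010256 to 70033483 in gastrocnemius. The members took 0.452% to 0.646% of a quadriceps library and 0.446% to 0.508% of a gastrocnemius library. Summed skeletal muscle fibre markers lay between 128000 and 195000 CPM (counts scaled to library size) in every group, and neutrophil markers summed to at most 2.93 CPM.

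Chaperones bind unfolded protein and release it in cycles driven by ATP. J-proteins deliver clients to HSP70 and start its ATP cycle, and HSP110-type proteins exchange its nucleotide. Stip1 hands clients from HSP70 to HSP90, and Ahsa1 speeds up the ATP cycle of HSP90. TRiC is a closed double ring that folds actin and tubulin, and in the mitochondrial matrix Hspd1 and its lid Hspe1 form a chamber that folds imported proteins. In muscle, HSP90 with Unc45 proteins folds myosin, and in humans mutations of DNAJB6 cause a muscular dystrophy.

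Many chaperone genes are switched on by heat shock factor, which binds arrays of the units GAA and TTC in alternating orientation. The promoter windows in RefSeq's table (GRCm38.p6) run from 250 bases before to 50 bases after a transcription start, and 58 windows were there for 45 members. They were searched on both strands for pairs of units, GAANNTTC or TTCNNGAA, and for runs of 3 units, GAANNTTCNNGAA or TTCNNGAANNTTC, each of which contains a pair. A pair lay in 10 of the 58 windows (17.2%), against 15.1% of all 32851 windows. A run of 3 lay in 4 of the 58 windows (6.9%), against 0.603% of all windows. These 4 are not independent, since Hspd1 and Hspe1 share letters between their starts and Dnajb6 has overlapping windows. The stretches below are shown because they hold the runs of 3 and, further down, the pairs upstream of members called after a run. Each has 30 bases, reads 5′ to 3′ on the strand of its gene and carries the units in capitals. The Hspe1 stretch on the plus strand (chr1:55088053-55088082) holds 4 units from 89 to 72 bases before the Hspe1 start. It also lies upstream of 1 of the 2 Hspd1 starts in the table, 216 bases from the Hspe1 start on the other strand. The window of the second Hspd1 start held 0 pairs, and from that start the stretch lies inside the transcribed region. The Dnajb6 stretch (plus strand, chr5:29735844-29735873) holds a run of 3.

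Hspe1: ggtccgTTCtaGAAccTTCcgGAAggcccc

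Dnajb6: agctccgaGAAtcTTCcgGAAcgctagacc

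Single pairs lay upstream of Dnaja4 (plus strand, chr9:54699458-54699487 and chr9:54699496-54699525), of Dnajb4 (minus strand, chr3:152193841-152193870), of Cct2 (minus strand, chr10:117063399-117063428) and of Cct5 (minus strand, chr15:31601862-31601891). Dnaja4, Dnajb4 and Cct2 each have another start further upstream, whose window held 0 pairs. From that start the printed pairs lie inside the transcribed region. In the Cct6a window the pair lay after the transcription start, and the remaining window with a pair was that of Dnajc27. Among other members called after a run, the windows of Serpinh1, Stip1, Ahsa1, Hspa4l, Hspa4, Dnajb2 and Cct3 held 0 pairs. Hsp90aa1 and Hsp90ab1 had no window in the table. A match describes letters, not binding.

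Dnaja4 first: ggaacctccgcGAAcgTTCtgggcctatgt

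Dnaja4 second: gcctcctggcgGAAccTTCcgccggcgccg

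Dnajb4: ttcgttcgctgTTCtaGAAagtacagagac

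Cct2: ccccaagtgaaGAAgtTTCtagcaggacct

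Cct5: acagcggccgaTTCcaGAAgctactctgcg

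Per kilobase of transcript, Hsp90ab1, the constitutive cytosolic HSP90, was the highest member in quadriceps, with a mean of 526 CPM per kb over 24 libraries. It made up 25.3% of the members' summed CPM. The matrix HSP70 gene Hspa9 came next at 140 CPM per kb, followed by Hspd1 at 85.7, Ahsa1 at 75, Trap1, the mitochondrial HSP90, at 70.1, Cct5 at 68.3 and Hspe1 at 62.7 CPM per kb. The inducible partner Hsp90aa1 averaged 48.8 CPM per kb and ranged between 10.1 and 158 CPM per kb over the same libraries, so its order among these genes changed with the group. Serpinh1 averaged 47.2 CPM per kb, with a range of 17.2 to 122. The TRiC subunits with a transcript length, which leaves out Cct6a, stayed within 33.1 to 68.3 CPM per kb, a ratio of 2.06 between Cct5 and Cct4. Those proteins are present in equal number in the ring. Among J-proteins the class B member Dnajb5 (62.4 CPM per kb) and the class A member Dnaja2 (59.1) stood highest, Dnajc7, which also binds HSP90, led class C at 33.2, and Dnajb14 was at 0.315. Hspa4 read 21.8 CPM per kb and its close relative Hspa4l 0.834.

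**Figure D1:**
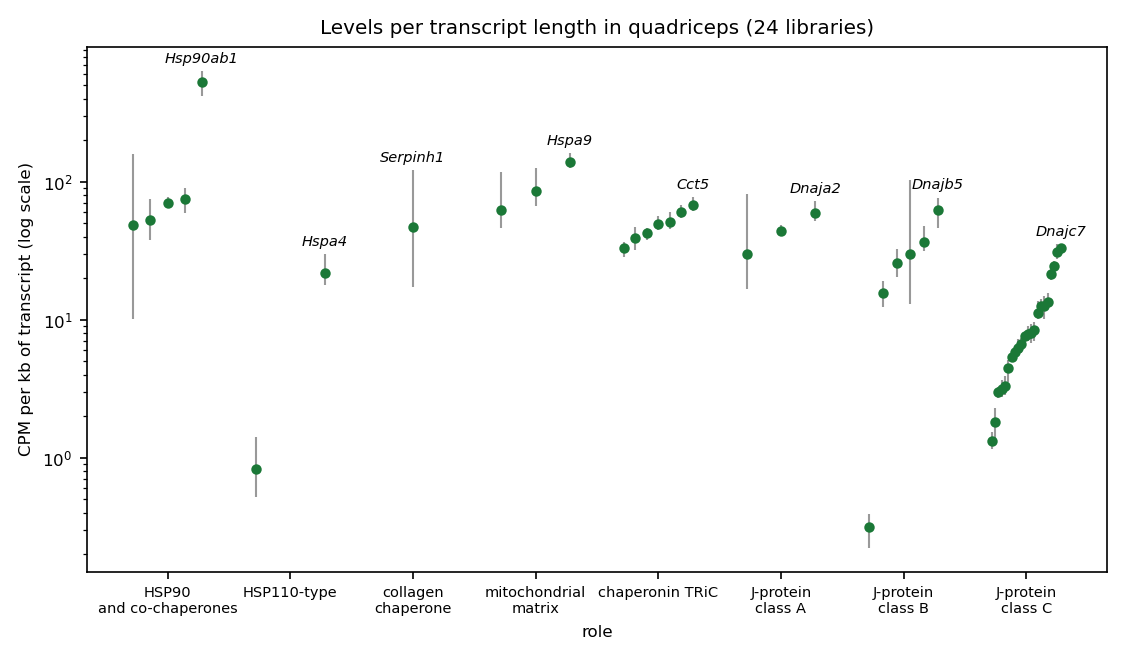
Level of each member in quadriceps, in CPM per kilobase of transcript on a log axis, by role; points are means over 24 libraries and lines run between the lowest and highest library. Hsp90ab1 stands highest at 526 CPM per kb, and the lines of Hsp90aa1 and Serpinh1 are long beside those of the TRiC subunits.

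A low-count filter left 50 members in both muscles. The 6 below it were the J-protein genes Dnajb3, Dnajb7, Dnajb8, Dnajb13, Dnajc6, which encodes auxilin, and Dnajc22. Dnajb8 had 0 counts in all libraries, and the highest count of any of the others in a library was 15 (Dnajc6).

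The first question was what a run to exhaustion did to these genes by its end. After the morning run, transcripts of HSP90, its co-chaperones, part of TRiC, Hspa4l, Serpinh1 and 1 J-protein were higher than in Sed ZT0 muscle. Against the 4.29% of all 15097 tested genes that passed the test (adjusted p under 0.05) as higher and the 2.53% as lower, 10 of the 50 members passed as higher and 0 as lower. The members' median log2 fold change was 0.06, where the median of all genes was 0; 19 members had an unadjusted p under 0.05. In DESeq2 13 members passed, all higher. In bulk muscle, fewer cells of a type and less RNA per cell cannot be told apart.

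Hsp90aa1 (gene identifier 15519, chromosome 12, 110691036 to 110696395, GRCm38.p6) read 277, 324 and 187 CPM in TM +0h ZT0 muscle, against 69.3, 85.4 and 130 CPM in Sed ZT0 muscle. All 3 runners were above all 3 sedentary mice. The log2 fold change was 1.47 (SE 0.41, adjusted p = 0.040). This call was lost without any 1 of TM +0h ZT0 replicates 1 and 2 and Sed ZT0 replicates 1 and 2 (1.29 to 1.43), with the highest adjusted p at 0.19. Hsp90ab1 (gene identifier 15516, chromosome 17, 45567778 to 45573261) read 1540, 1600 and 1490 CPM in TM +0h ZT0 muscle, against 1050, 1080 and 1170 CPM in Sed ZT0 muscle, without overlap. It rose by 0.49 (SE 0.079, adjusted p = 0.00072). Stip1 (gene identifier 20867, chromosome 19, 7020696 to 7040026) read 157, 149 and 119 CPM after the run and 89.8, 92 and 105 CPM in Sed ZT0 muscle, and Ahsa1 read 125, 119 and 111 CPM after the run and 90.9, 95.2 and 99.7 CPM in Sed ZT0 muscle. Stip1 rose by 0.57 (SE 0.095, adjusted p = 0.00098) and Ahsa1 by 0.31 (SE 0.057, adjusted p = 0.0017). Thus 4 of the 5 HSP90 genes passed, and the exception was mitochondrial Trap1 (0.03, adjusted p = 0.74).

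Serpinh1, the chaperone of procollagen (gene identifier 12406, chromosome 7, 99345375 to 99353239), read 196, 185 and 178 CPM in TM +0h ZT0 muscle, against 66.3, 84.3 and 113 CPM in Sed ZT0 muscle. It rose by 1.08 (SE 0.24, adjusted p = 0.0094), and the call was lost without Sed ZT0 replicate 1 (0.91, adjusted p = 0.070). Fibroblast markers summed to 1510, 1150 and 818 CPM in the same runners, against 795, 818 and 1100 CPM in Sed ZT0 muscle, with overlap, and their part in the Serpinh1 values was not tested. Adipocyte markers were spread widely, at 1500, 295 and 1770 CPM after the run and 263, 651 and 228 CPM in Sed ZT0 muscle. None of these 7 markers passed in edgeR, 6 had an unadjusted p under 0.05, and their part was not tested. Of 7 skeletal muscle fibre markers 6 were positive and 1 was called higher. They summed to 165000, 183000 and 147000 CPM after the run, against 128000, 143000 and 145000 CPM in Sed ZT0 muscle. Slow fibre markers, all 7 negative without a call, summed to 199, 224 and 330 CPM, against 1870, 213 and 610 CPM. Of the others, 1 endothelial and 1 smooth muscle marker were called lower. The part of these was not tested either. Hspa4l, the sparse HSP110-type gene, read 13.5, 11 and 10.6 CPM after the run and 7.12, 6.22 and 8.68 CPM in Sed ZT0 muscle (log2 fold change 0.68, SE 0.13, adjusted p = 0.0030). Its abundant relative Hspa4 gave 0.12 (adjusted p = 0.34).

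Of the 8 TRiC subunits, 3 rose, Cct3 by 0.26, Cct2 by 0.22 and Cct6a by 0.25, and all 8 had a positive fold change with a median of 0.17. Summed over the subunits, TRiC stood at 939, 947 and 880 CPM in TM +0h ZT0 muscle, against 808, 819 and 829 CPM in Sed ZT0 muscle. The 31 J-proteins that could be tested gave 1 call, against 9 among the 19 other members. That call was Dnajb2, a class B J-protein with ubiquitin-binding motifs, at 93.4, 82.5 and 79.5 CPM in runners and 67.7, 71.5 and 68.1 CPM in Sed ZT0 muscle (0.30, SE 0.065, adjusted p = 0.0069). It was lost without TM +0h ZT0 replicate 1 (0.23, adjusted p = 0.071), and Cct6a was lost without that library or Sed ZT0 replicate 1 (0.23 and 0.22). In the matrix, Hspd1 gave 0.27 (adjusted p = 0.099), Hspe1 0.42 (adjusted p = 0.081) and Hspa9 -0.07 (adjusted p = 0.64). Hspd1 and Hspe1 overlap head to head in the annotation, and no source used here states whether reads were counted by strand, so their separate values are uncertain.

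**Figure D2:**
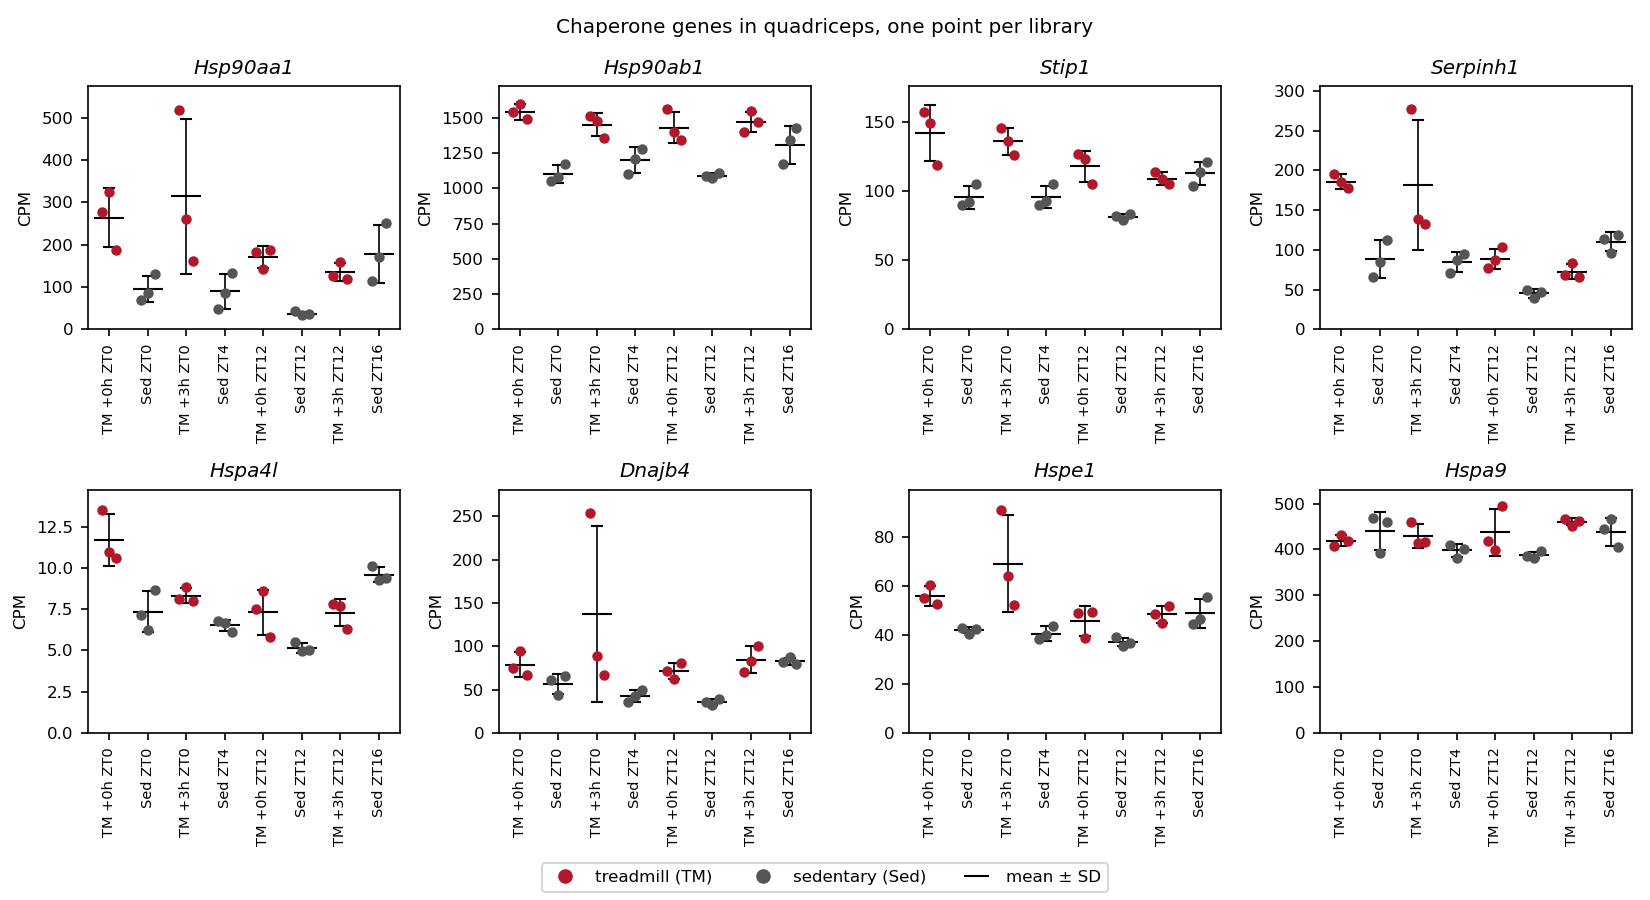
CPM of 8 members in the 8 quadriceps groups; each point is a library and the bars give mean ± SD of 3 libraries. For Hsp90aa1 and Serpinh1 the TM +0h ZT0 points lie above the Sed ZT0 points, and Sed ZT16 lies above Sed ZT12.

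After the evening run HSP90, its co-chaperones, Serpinh1 and Hspa4l were again higher at once. Against 3.19% of all tested genes higher and 1.41% lower, 9 members passed as higher and 0 as lower (11 and 0 in DESeq2), with a median log2 fold change of 0.08. An unadjusted p under 0.05 was found for 22. Hsp90aa1 read 183, 142 and 187 CPM in TM +0h ZT12 muscle, against 42.2, 33 and 36.9 CPM in Sed ZT12 muscle. The groups were far apart, and the log2 fold change was 2.19 (SE 0.42, adjusted p = 0.0046). Hsp90ab1 read 1560, 1400 and 1340 CPM in runners and 1090, 1070 and 1110 CPM in Sed ZT12 muscle (0.40, SE 0.079, adjusted p = 0.0038). Stip1 rose by 0.54 (SE 0.095), Ahsa1 by 0.31 (SE 0.057), Cct3 by 0.29 (SE 0.052), Dnajb2 by 0.35 (SE 0.065) and Cct4 by 0.17 (SE 0.046). Serpinh1 read 77.4, 86.8 and 103 CPM in TM +0h ZT12 muscle, against 49.7, 39.2 and 47.4 CPM in Sed ZT12 muscle. It rose by 0.97 (SE 0.24, adjusted p = 0.024), but the call was lost in all fits that left out 1 library other than the one without TM +0h ZT12 replicate 1 (0.85 to 1.04, with adjusted p up to 0.10). Hspa4l (0.50, adjusted p = 0.033) was lost in all such fits but the one without TM +0h ZT12 replicate 3, down to 0.37 without TM +0h ZT12 replicate 2. Cct4 was lost without Sed ZT12 replicate 2 or 3 or TM +0h ZT12 replicate 1 or 2 (0.14 to 0.19). All 7 skeletal muscle fibre markers were positive. They summed to 188000, 195000 and 192000 CPM in TM +0h ZT12 muscle and 150000, 169000 and 168000 CPM in Sed ZT12 muscle, without overlap. Adipocyte markers, all 7 negative, summed to 783, 233 and 447 CPM after the run, against 2350, 925 and 453 CPM in Sed ZT12 muscle. Of these markers 0 were called in edgeR, and their part was not tested.

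The calls of the morning and evening +0h comparisons, which share no library, had 8 members in common, 80.0% of the morning list and 88.9% of the evening list. They were Ahsa1, Cct3, Dnajb2, Hsp90aa1, Hsp90ab1, Hspa4l, Serpinh1 and Stip1. The overlap of the calls among all tested genes was not counted, so these shares have no background beside them. Of the 22 class C J-proteins 0 were called in either session, by edgeR or by DESeq2. At an unadjusted p under 0.05 in edgeR there were 3 of them in the morning and 2 in the evening. The evening response minus the morning response gave 0 calls among members in edgeR, as among all genes (0.0% higher and 0.0% lower). An unadjusted p under 0.05 was found for 3 members, and DESeq2 likewise gave 0 calls.

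The second question was what remained 3 h after the run. After the morning run 20 of 50 members were higher than in Sed ZT4 muscle (40.0%) and 1 was lower, against 6.96% and 6.63% of all tested genes. The +0h count of 10 was taken against Sed ZT0, so these counts do not measure a change between +0h and +3h. With the controls exchanged, 15 members were higher at +0h and 14 at +3h. The members' median log2 fold change was 0.11. Of the 8 TRiC subunits 7 were higher, and log2 fold changes of all 8 lay between 0.16 and 0.29. Against Sed ZT0 in place of Sed ZT4, 2 of the 8 passed, Cct2 (0.30) and Cct7 (0.27), and the other 6 had log2 fold changes of 0.11 to 0.16 and adjusted p of 0.053 to 0.14. Cct2 read 114, 114 and 105 CPM in TM +3h ZT0 muscle, against 90, 90 and 93.3 CPM in Sed ZT4 muscle (0.29, SE 0.052, adjusted p = 0.00095). The summed TRiC subunits reached 926, 942 and 901 CPM after the run and 786, 793 and 827 CPM in Sed ZT4 muscle. Cct6a, at 0.16 (adjusted p = 0.095), was the subunit that did not pass.

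The matrix chamber genes were called here. Hspe1 read 91.1, 64.2 and 52.4 CPM in TM +3h ZT0 muscle, against 38.3, 39.8 and 43.8 CPM in Sed ZT4 muscle, and rose by 0.77 (SE 0.14, adjusted p = 0.0012). Hspd1 read 306, 234 and 211 CPM after the run and 179, 178 and 189 CPM in Sed ZT4 muscle, and rose by 0.46 (SE 0.096, adjusted p = 0.0031). The groups did not overlap for either gene, and these are the genes whose shared stretch is printed above. Against the same Sed ZT4 libraries both had also passed right after the run, Hspd1 at 0.39 (adjusted p = 0.017) and Hspe1 at 0.46 (adjusted p = 0.049), and +3h was not tested against +0h. Hspa9, which takes proteins in through the inner membrane, gave 0.11 (adjusted p = 0.40), with 460, 413 and 416 CPM after the run and 410, 381 and 402 CPM in Sed ZT4 muscle. Trap1 gave 0.04 (adjusted p = 0.61).

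Hspa4 had its highest group mean here, with 138, 122 and 112 CPM in TM +3h ZT0 muscle, against 89.3, 91 and 93.3 CPM in Sed ZT4 muscle (0.44, SE 0.069, adjusted p = 0.00023). Of the J-proteins, 5 rose, and their sizes differed widely. Dnajb4, a class B member linked to human myopathy, read 254, 89.2 and 67 CPM in runners and 35.3, 42.7 and 49.3 CPM in Sed ZT4 muscle (1.69, SE 0.35, adjusted p = 0.0035). Dnaja4 of class A read 246, 116 and 107 CPM in runners and 82.2, 68.3 and 77.3 CPM in Sed ZT4 muscle (1.04, SE 0.24, adjusted p = 0.0077). Dnajb2, at 96.8, 99.4 and 95.6 CPM after the run and 70.4, 70.2 and 72.9 CPM in Sed ZT4 muscle, had the smallest p of all members (0.45, SE 0.065, adjusted p = 0.00011). Dnaja2 (0.21) and Dnajb6 (0.18) rose less. The 1 member that fell was Dnajc24, an enzyme cofactor of diphthamide synthesis, at 1.98, 1.84 and 1.68 CPM in runners and 2.56, 2.75 and 2.32 CPM in Sed ZT4 muscle (-0.47, SE 0.13, adjusted p = 0.019). Its call was lost in 4 of the 6 fits that left out 1 library (-0.47 to -0.42).

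Hsp90aa1 read 518, 261 and 161 CPM in TM +3h ZT0 muscle, against 49, 86.2 and 133 CPM in Sed ZT4 muscle (1.81, SE 0.42, adjusted p = 0.0079). Serpinh1 read 277, 139 and 132 CPM in runners and 70.4, 87.6 and 95.3 CPM in Sed ZT4 muscle (1.11, SE 0.24, adjusted p = 0.0043). TM +3h ZT0 replicate 1 was the highest of its group for both, and also for Dnajb4, Dnaja4, Hspe1 and Hspd1. The same library had the highest sum of fibroblast markers, 1830 CPM against 761 and 1090 CPM in the other runners and 844, 992 and 1130 CPM in Sed ZT4 muscle, and of tendon markers, 522 CPM against 122 and 339 CPM in the other runners. It was also highest for slow fibre markers, at 1600 CPM against 67.6 and 277 CPM in the other runners. Their sums in Sed ZT4 muscle were 980, 407 and 268 CPM. The part of these markers was not tested. Each of the 6 genes named kept its call without TM +3h ZT0 replicate 1. Hsp90ab1 (0.28, adjusted p = 0.023) and Tcp1 (0.16, adjusted p = 0.023) did not keep theirs (0.25 and 0.16, adjusted p = 0.078 and 0.053), and both were also lost without TM +3h ZT0 replicate 2 or Sed ZT4 replicate 1 or 2, down to 0.22 and 0.14. Ahsa1 (0.22) was lost without Sed ZT4 replicate 2 (0.19, adjusted p = 0.066). In a fit of these 6 libraries alone 6 members passed, and Hsp90aa1 (1.81, adjusted p = 0.17), Dnajb4 (1.68, adjusted p = 0.18), Serpinh1 (1.11, adjusted p = 0.13) and Hspe1 (0.76, adjusted p = 0.085) did not.

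**Figure D3:**
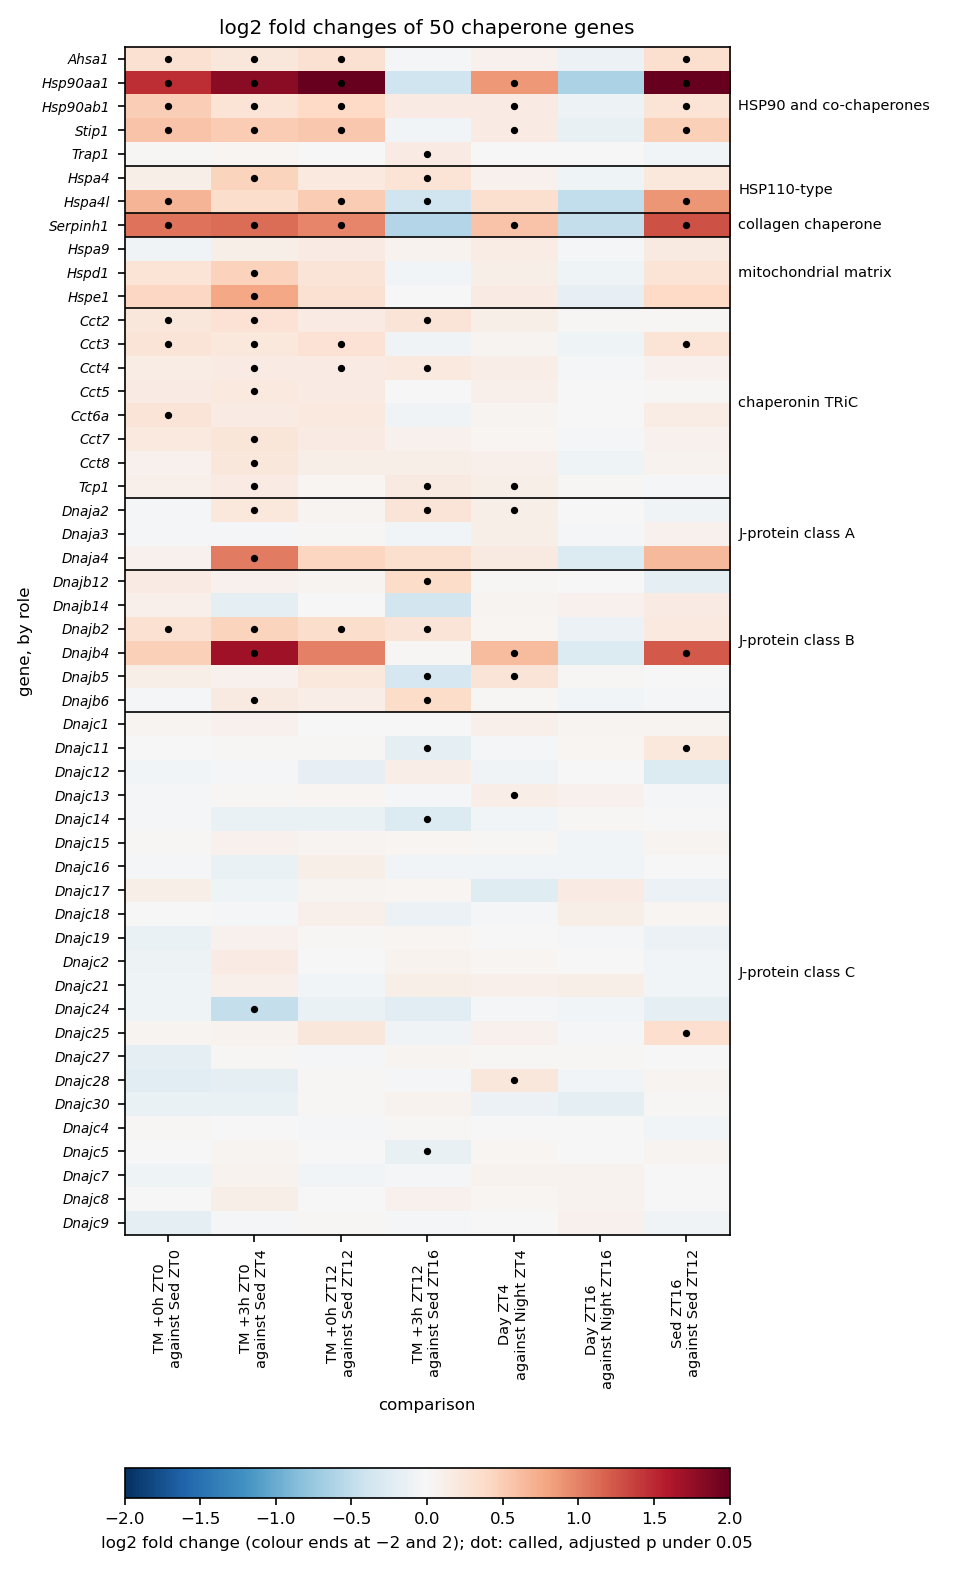
Log2 fold changes of the 50 tested members in 7 comparisons, by role; colour gives the value and a dot marks an adjusted p under 0.05. The TRiC block is dotted for 7 of 8 subunits at TM +3h ZT0 against Sed ZT4, and the class C block holds few dots.

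At 3 h after the evening run the share of members called higher exceeded that of all genes, and the share called lower was near it. Against Sed ZT16 muscle, 9 members were higher and 5 lower. Of all tested genes 8.7% were higher and 8.53% lower, and the median of the members was 0.02. The falls described below therefore concern single genes and do not set the members apart from other genes. Of the 31 J-proteins 4 were higher and 4 lower, and of the 19 other members 5 were higher and 1 lower. Of 7 skeletal muscle fibre markers 4 were also higher (median of the 7, 0.31), summing to 177000, 191000 and 168000 CPM in TM +3h ZT12 muscle and 135000, 143000 and 157000 CPM in Sed ZT16 muscle. Slow fibre markers, all 7 negative without a call, summed to 218, 432 and 560 CPM in runners and 2330, 733 and 166 CPM in Sed ZT16 muscle. The 2 neutrophil markers tested were called higher, and the neutrophil sums in runners were 2.93, 0.14 and 0.193 CPM. Of the others, 1 endothelial and 1 smooth muscle marker were called higher and 1 macrophage marker lower. The part of these markers was not tested. Dnajb6 read 132, 133 and 141 CPM in TM +3h ZT12 muscle, against 105, 108 and 103 CPM in Sed ZT16 muscle (0.36, SE 0.052, adjusted p = 7.1e-05). Dnajb12, a J-protein of the endoplasmic reticulum membrane, read 56.2, 56.5 and 59 CPM in runners and 38.8, 47.2 and 46.7 CPM in Sed ZT16 muscle (0.37, SE 0.079, adjusted p = 0.0026). Dnaja2 (0.26), Dnajb2 (0.25), Hspa4 (0.27), Cct2 (0.25), Cct4 (0.19), Tcp1 (0.18) and Trap1 (0.16) also rose. Trap1 was lost in 3 of the 6 fits that left out 1 library, down to 0.13 without Sed ZT16 replicate 1.

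Dnajb5 and Dnajc14 headed the falls. Dnajb5, which takes part in redox control of a histone deacetylase in cardiac muscle, read 154, 153 and 166 CPM in TM +3h ZT12 muscle, against 201, 199 and 197 CPM in Sed ZT16 muscle (-0.34, SE 0.069, adjusted p = 0.0018). Dnajc14 read 25.2, 24.6 and 24.2 CPM in runners and 29.6, 31.4 and 28.8 CPM in Sed ZT16 muscle (-0.28, SE 0.047, adjusted p = 0.00035). Neither pair of groups overlapped. Dnajc5, which encodes cysteine string protein (-0.15), Hspa4l (-0.40) and Dnajc11 of the mitochondrial cristae machinery (-0.18) also fell. Hspa4l was lost in 5 of the 6 fits without 1 library (-0.44 to -0.31), Dnajc11 in 4 of them and Dnajc5 in 3. Without Sed ZT16 replicate 1, 8 members passed in place of 14, since Dnajb2 (0.21), Hspa4 (0.23) and Trap1 were lost as well.

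HSP90 and its co-chaperones gave 1 call against Sed ZT16, that of Trap1. Hsp90aa1 read 125, 160 and 119 CPM in TM +3h ZT12 muscle and 113, 171 and 250 CPM in Sed ZT16 muscle, which overlap (-0.40, SE 0.40, adjusted p = 0.57). Stip1 gave -0.05 and Ahsa1 -0.03. Serpinh1 read 68.2, 83.9 and 66.1 CPM in runners, below the 114, 96.4 and 119 CPM of Sed ZT16 muscle, but did not pass (-0.59, adjusted p = 0.094; DESeq2 called it, at -0.60).

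The Sed ZT16 libraries themselves stood high for these genes. With no run, 10 members were higher at ZT16 than at ZT12 and 0 lower in edgeR, against 5.25% and 3.87% of all tested genes. In all, 19 passed an unadjusted threshold of 0.05, and by DESeq2 14 were higher and 1 lower. Hsp90aa1 read 113, 171 and 250 CPM in Sed ZT16 muscle, against 42.2, 33 and 36.9 CPM in Sed ZT12 muscle (2.25, SE 0.42, adjusted p = 0.0034). Hspa4l read 10.1, 9.25 and 9.42 CPM at Sed ZT16 and 5.52, 4.96 and 5.02 CPM at Sed ZT12 (0.89, SE 0.13, adjusted p = 0.00037). Serpinh1 rose by 1.27 (SE 0.24), Stip1 by 0.47, Ahsa1 by 0.32, Cct3 by 0.28 and Dnajc25 by 0.34. Dnajb4 (1.22), Dnajc11 (0.21) and Hsp90ab1 (0.27) rose too but were lost in 4 or more of the 6 fits without 1 library. Tendon markers summed to 430, 237 and 146 CPM at Sed ZT16 and 145, 108 and 203 CPM at Sed ZT12, with overlap. Slow fibre markers summed to 2330, 733 and 166 CPM at Sed ZT16 and 425, 110 and 84.2 CPM at Sed ZT12, with all 7 positive, 0 called by edgeR or DESeq2 and 2 at an unadjusted p under 0.05. Of the others, 1 fibroblast and 1 smooth muscle marker were called higher and 1 skeletal muscle fibre marker lower. All 7 adipocyte markers had negative values without a call. Their part was not tested. Sed ZT12 against Sed ZT0 gave 1 member higher (Dnajb12, 0.33), or 2.0%, and 4 lower, or 8.0%. Of all tested genes 7.58% were higher and 8.56% lower, so neither share of the members exceeded that of all genes. The 4 lower members were Hsp90aa1 (-1.34, SE 0.41), Serpinh1 (-0.95, SE 0.24), Hspa4l (-0.50) and Cct3 (-0.20). All 4 were lost without Sed ZT0 replicate 3 (-1.05, -0.73, -0.37 and -0.19) and without Sed ZT12 replicate 2 (-1.26, -0.86, -0.47 and -0.18), and Hsp90aa1 was lost in 5 of the 6 such fits. Of 5 endothelial markers 3 were lower at Sed ZT12, summing to 204, 180 and 243 CPM against 297, 257 and 307 CPM at Sed ZT0. Adipocyte markers summed to 2350, 925 and 453 CPM at Sed ZT12 and 263, 651 and 228 CPM at Sed ZT0, with all 7 positive and 1 called (4 in DESeq2). Of the other markers, 2 skeletal muscle fibre and 1 macrophage marker were called higher, and 1 smooth muscle and 1 tendon marker lower. Their part was not tested. Over the 4 sedentary groups 11 of the 50 members differed (22.0%) in an F test, against 17.1% of all tested genes; this count was 6 without Sed ZT12 replicate 2 and 7 without Sed ZT16 replicate 2.

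The evening counts moved with the sedentary group used as control. Against Sed ZT12 in place of Sed ZT16, TM +3h ZT12 muscle had 19 members higher and 3 lower, beside 9.68% and 9.33% of all tested genes. Hsp90aa1 then read 1.85 (SE 0.42, adjusted p = 0.0049), Stip1 0.42 (SE 0.095), Ahsa1 0.29 (SE 0.057) and Hspa4l 0.50 (SE 0.13). Against Sed ZT16 in place of Sed ZT12, TM +0h ZT12 muscle had 0 members called in edgeR in either direction, with 10 at an unadjusted p under 0.05 (DESeq2 was not run on this pair), beside 4.25% and 3.56% of all tested genes. Hsp90aa1 then read -0.06 (adjusted p = 0.96). By the sampling times in the labels, Sed ZT12 is the nearest in time to the +0h evening runners and Sed ZT16 to the +3h ones. Dnajb6 (0.36 and 0.33), Dnajb2 (0.25 and 0.44), Dnajb5 (-0.34 and -0.33), Dnajc14 (-0.28 and -0.28), Cct2 (0.25 and 0.29) and Hspa4 (0.27 and 0.48) were called at +3h against both. Morning calls moved with the control too. Against the other sedentary group TM +0h ZT0 muscle had 15 members higher and 0 lower (4.33% and 3.17% of all tested genes), and TM +3h ZT0 muscle had 14 higher and 2 lower (7.04% and 6.42%). Hspd1 and Hspe1 gained calls at +0h, as did Cct4, Cct5 and Cct8, and at +3h Cct3, Cct4, Cct5, Cct8, Tcp1, Dnaja2 (0.12) and Dnajb6 (0.10) lost theirs.

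**Figure D4:**
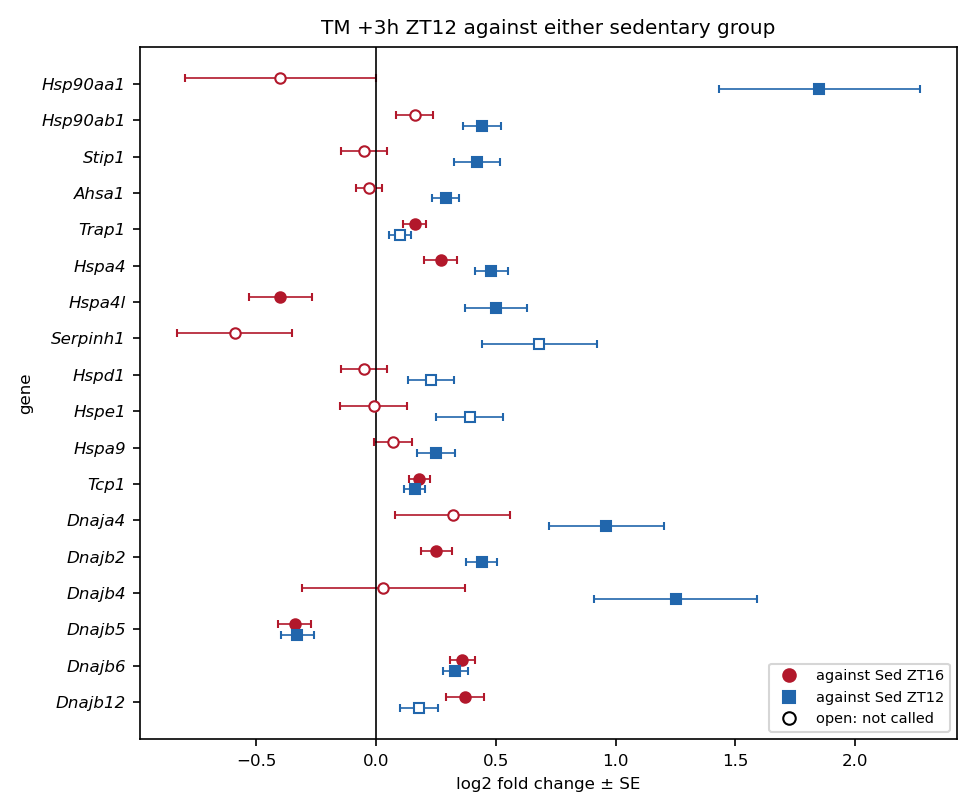
Log2 fold changes ± SE of 18 members in TM +3h ZT12 muscle, against Sed ZT16 (circles) and against Sed ZT12 (squares); open symbols did not pass. Hsp90aa1 stands at -0.40 against the first control and 1.85 against the second, while Dnajb6 and Dnajb5 hardly move.

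Dnajb2 was the member called higher in all 4 treadmill comparisons. Of the members called higher at +3h, 7 were shared between sessions, whose comparisons share no library: Cct2, Cct4, Dnaja2, Dnajb2, Dnajb6, Hspa4 and Tcp1 made up 35.0% of the morning list and 77.8% of the evening list. Here too the overlap among all tested genes was not counted. The evening response minus the morning response at +3h gave 4 members lower and 0 higher in edgeR, with 19 at an unadjusted p under 0.05 and 10 lower and 0 higher in DESeq2. Of all tested genes, 0.941% were lower and 0.649% higher. The 4 were Serpinh1 (-1.71, SE 0.33, adjusted p = 0.015), Dnajb5 (-0.42, SE 0.098, adjusted p = 0.033), Stip1 (-0.55, SE 0.13, adjusted p = 0.041) and Hspa4l (-0.75, SE 0.19, adjusted p = 0.044). Serpinh1 kept its call in each of the 12 fits that left out 1 library. Hspa4l lost it in all 12 (-0.81 to -0.66), Dnajb5 in 10 of them (-0.43 to -0.36) and Stip1 in 9 (-0.59 to -0.50). Hsp90aa1 had the largest difference without a call (-2.21, SE 0.58, adjusted p = 0.068) and passed without TM +3h ZT0 replicate 3 (-2.52, adjusted p = 0.032), with 7 members in all. In these differences each session carries its own sedentary controls, and the high Sed ZT16 values enter them.

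The third question was how the schedule of wheel access bore on gastrocnemius. At ZT4, in the light phase, when the Day mice had their wheels and the Night mice did not, members were higher in Day muscle: 10 of 50 higher and 0 lower, against 6.36% and 6.78% of all 14523 tested genes, with a median of 0.07. An unadjusted p under 0.05 in edgeR was found for 22, and DESeq2 called 17 higher and 0 lower. Hsp90aa1 read 69.3, 58.3, 67.6 and 66.5 CPM in Day ZT4 muscle, against 36.6, 35.2, 35.2 and 37.1 CPM in Night ZT4 muscle (0.86, SE 0.18, adjusted p = 0.0082). Dnajb4 read 52.1, 49.5, 69.6 and 49.3 CPM in Day ZT4 muscle and 35.6, 35.9, 36.4 and 34.6 CPM in Night ZT4 muscle (0.63, SE 0.13, adjusted p = 0.0074). Neither gene overlapped between the schedules. Dnajb5 (0.25, SE 0.049) and Dnajc28 (0.23) rose as well, and these 4 kept their calls without any 1 library. Dnajb5 stood at 243, 239, 250 and 247 CPM in Day ZT4 muscle and 200, 216, 195 and 212 CPM in Night ZT4 muscle.

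The other 6 calls at ZT4 were small or unsteady: Hsp90ab1 (0.17), Dnaja2 (0.12), Serpinh1 (0.57), Stip1 (0.16), Tcp1 (0.11) and Dnajc13 (0.13), the last a J-protein of endosomes. Serpinh1 read 81.7, 69.5, 58.5 and 68.1 CPM in Day ZT4 muscle and 52.5, 48.6, 42.6 and 44 CPM in Night ZT4 muscle. Its adjusted p was 0.042, and 0.10 without Day ZT4 replicate 1 (0.48). The count of calls fell to 4 without Day ZT4 replicate 4, to 6 without Day ZT4 replicate 2 and to 5 or 6 without any 1 of the Night ZT4 libraries. Of 5 endothelial markers 4 were lower in Day muscle, summing to 210, 230, 207 and 216 CPM against 268, 276, 255 and 274 CPM in Night muscle. Fibroblast markers summed to 695, 585, 517 and 613 CPM in Day muscle and 905, 744, 744 and 644 CPM in Night muscle. Their part in the results was not tested.

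At ZT16, in the dark phase, 0 members passed in edgeR in either direction, against 0.275% and 0.289% of all tested genes. At an unadjusted p under 0.05 there were 15, and DESeq2 called 2. Hsp90aa1 read 40.5, 38.9, 40.8 and 41.5 CPM in Day ZT16 muscle and 51, 81.5, 79.5 and 39.5 CPM in Night ZT16 muscle (-0.63, SE 0.18, adjusted p = 0.13). The Night values split into a high and a low pair, and without Night ZT16 replicate 4 the gene passed (-0.80, adjusted p = 0.0099). Hspa4l did so too (-0.61, adjusted p = 0.043), with 4.86, 5, 4.98 and 4.74 CPM in Day ZT16 muscle and 5.59, 7.96, 8.96 and 5.35 CPM in Night ZT16 muscle.

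**Figure D5:**
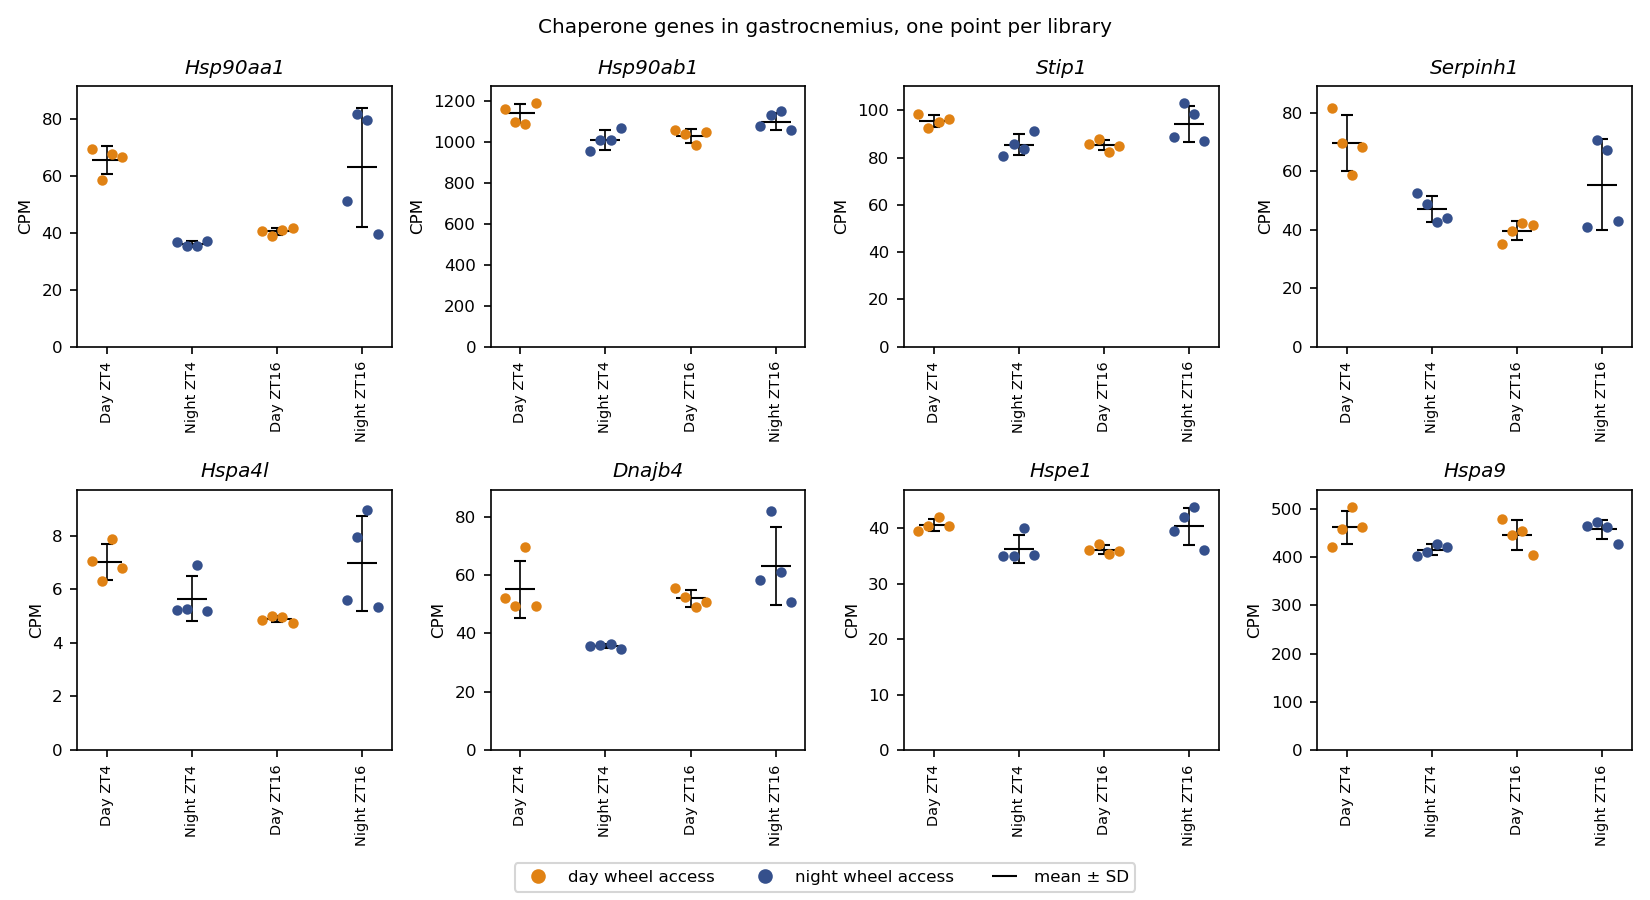
CPM of 8 members in the 4 gastrocnemius groups; each point is a library and the bars give mean ± SD of 4 libraries. For Hsp90aa1 the Day ZT4 points lie between 58.3 and 69.3 CPM, above all Night ZT4 and all Day ZT16 points, and Night ZT16 spreads between 39.5 and 81.5 CPM.

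Within a schedule, ZT16 and ZT4 differed in opposite directions for Hsp90aa1. In Night muscle, ZT16 against ZT4 gave 8 members higher and 1 lower, beside 9.41% and 9.38% of all tested genes. Dnajb4 (0.82, SE 0.13, adjusted p = 0.00062), Hsp90aa1 (0.80, SE 0.18, adjusted p = 0.0073), Dnajb6 (0.22), Dnaja2 (0.17) and Dnajc30, which acts on the respiratory chain (0.21), rose and kept their calls without any 1 library. Of the markers, 2 of 5 endothelial, 2 of 5 macrophage and 1 of 5 fibroblast genes were lower at Night ZT16. The endothelial sum was 198, 254, 218 and 217 CPM at Night ZT16 and 268, 276, 255 and 274 CPM at Night ZT4, and the part of these markers was not tested. In Day muscle, ZT16 against ZT4 gave 1 member higher and 8 lower, beside 7.7% and 7.17%. Hsp90aa1 fell by 0.69 (SE 0.18, adjusted p = 0.019), Serpinh1 by 0.81 (SE 0.17, adjusted p = 0.0059), Dnaja4 by 0.41 and Hspa4l by 0.52, and Dnajc11 rose by 0.18. Hsp90aa1 was lost without Day ZT16 replicate 2 (-0.68, adjusted p = 0.050), Hspa4l without Day ZT4 replicate 3 (-0.46, adjusted p = 0.060) and Dnajc11 without Day ZT16 replicate 1 (0.16, adjusted p = 0.053). Serpinh1 read 35.2, 39.4, 42.2 and 41.7 CPM in Day ZT16 muscle, all under the lowest Day ZT4 value of 58.5 CPM.

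The difference of these time effects, Day minus Night, was negative for 13 members and positive for 0 at an adjusted p under 0.05, against 5.07% and 4.68% of all tested genes, with a median of -0.08. In edgeR 22 passed an unadjusted threshold of 0.05, and by DESeq2 14 were negative and 0 positive. Hsp90aa1 led (-1.49, SE 0.25, adjusted p = 0.0025). It was followed by Dnajb4 (-0.91, SE 0.19), Stip1 (-0.31), Hsp90ab1 (-0.26), Serpinh1 (-1.05), Hspe1 (-0.32), Hspa4l (-0.82) and Dnajc28 (-0.28), each of which kept its call in all 16 fits without 1 library. Cct8 (-0.18), Hspa4 (-0.19) and Hspd1 (-0.21) kept their calls in 11, 9 and 6 of those 16 fits. In the fits that lost them the values went down to -0.16, -0.17 and -0.18. Dnaja4 (-0.45, adjusted p = 0.040) and Dnajb5 (-0.23, adjusted p = 0.048) completed the 13. The 2 HSP110-type genes and 2 of the 3 matrix genes were thus among them, but 1 of 8 TRiC subunits and 1 of 22 class C J-proteins.

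Over the 10 comparisons of 2 groups, Hsp90aa1 was called in 8, Serpinh1 in 7 and Hsp90ab1, Hspa4l and Stip1 in 6 each. At the other end 15 members were called in 0 of the 10 in edgeR, of which DESeq2 called Dnaja3 and Dnajc12 and left 13. They were Hspa9 and the J-proteins Dnaja3, Dnajb14, Dnajc1, Dnajc2, Dnajc4, Dnajc8, Dnajc9, Dnajc12, Dnajc15, Dnajc16, Dnajc17, Dnajc19, Dnajc21 and Dnajc27, among which Dnaja3, Dnajc15 and Dnajc19 work in mitochondria and Dnajc2 and Dnajc21 with ribosomes. How many of all tested genes were called in 0 of the 10, or as often as these members, was not counted. Some of these comparisons also share libraries, so the counts are a description.

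Some genes that work beside the members were called too. Of all tested genes, 4.29% were higher in TM +0h ZT0 muscle, 3.19% in TM +0h ZT12 muscle, 6.96% in TM +3h ZT0 muscle and 8.7% in TM +3h ZT12 muscle. Lower were 2.53%, 1.41%, 6.63% and 8.53%, in the same order. A single fall among the 17 heat shock genes below is 5.88%, near the shares of all genes at +3h. Of 12 other HSP90 co-chaperones, 6 rose in TM +0h ZT0 muscle and 4 in TM +0h ZT12 muscle, led in both by Unc45a (0.66, SE 0.098, and 0.65, SE 0.098). In TM +3h ZT0 muscle 5 rose, led by Unc45b, the myosin chaperone of striated muscle, which read 669, 646 and 591 CPM in runners and 433, 403 and 428 CPM in Sed ZT4 muscle (0.59, SE 0.082, adjusted p = 7e-05). In TM +3h ZT12 muscle 2 of the 12 rose, Sugt1 (0.25) and Unc45b (0.31). Of 17 inducible HSP70 and small heat shock genes, 3 rose in TM +0h ZT0 muscle, 7 in TM +0h ZT12 muscle, 7 in TM +3h ZT0 muscle, where 1 fell, and 0 in TM +3h ZT12 muscle, by edgeR or DESeq2, where 1 fell and 3 had an unadjusted p under 0.05 in edgeR. The last count is against Sed ZT16, where 7 of the 17 were themselves higher than at Sed ZT12, against 5.25% of all tested genes. Hspa1a, an inducible HSP70 gene, read 105, 235 and 160 CPM in TM +3h ZT12 muscle, 63.8, 272 and 382 CPM in Sed ZT16 muscle and 5.37, 4.55 and 7.74 CPM in Sed ZT12 muscle. Hspb1 (1.73, SE 0.37) and Hspb8 (0.91, SE 0.20), small heat shock genes, were among those of TM +3h ZT0 muscle. The Day minus Night difference of time effects was negative for 7 of the 17 and positive for 0 in edgeR (9 and 1 in DESeq2), with Hspb1 at -0.82 (SE 0.15). Of all tested genes 5.07% were negative and 4.68% positive in edgeR.

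Genes of collagen synthesis, which act on the clients of Serpinh1, rose in 4 of 10 in TM +0h ZT0 muscle, in 2 in TM +0h ZT12 muscle and in 4 in TM +3h ZT0 muscle. Of all tested genes 4.29%, 3.19% and 6.96% rose there. The 4 in TM +0h ZT0 muscle were the enzymes of collagen hydroxylation P4ha1 (0.75, SE 0.12), Plod1 (0.44, SE 0.073), P4ha2 (0.40) and Plod2 (0.94), with no collagen chain among them. Like Serpinh1, P4ha1 (-0.77, SE 0.17, adjusted p = 0.029) and P4ha2 (-0.50, SE 0.12, adjusted p = 0.033) had negative differences between the +3h responses, beside 0.941% of all tested genes. In Night muscle the collagen chains Col3a1 (-1.11), Col5a1 (-0.54) and Col1a1 (-0.79) and the crosslinking enzyme Lox (-0.54) were lower at ZT16 than at ZT4, where Serpinh1 gave 0.24 without a call. Of 8 prefoldin and chaperonin cofactors, which serve TRiC, 1 rose (Pfdn1, 0.21) and 1 fell (Pdcl, -0.35) in TM +3h ZT0 muscle. Of 13 genes of mitochondrial import and protein quality control, which work with Hspa9 and Hspd1, 0 rose there in edgeR and 1 fell (Clpx, -0.20), with 2 at an unadjusted p under 0.05 and 1 higher in DESeq2.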

How the data were processed

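The values are estimated counts per gene and lane, which the authors deposited in 80 columns for 40 libraries in 12 groups. The submitters' processing notes list the tools kallisto (0.46.2), DESeq2 (1.26.0) and bcl2fastq (2.20.0.422), and name mm10 and GRCm38.p6 as builds. Per the labels' protocols, the kit selects polyadenylated RNA and keeps strand. The annotation, the summing of transcripts to genes and the strand setting are not stated there. kallisto divides reads shared by similar genes by a model. Of 23621 identifiers, 23614 matched RefSeq symbols, and the 7 others held 0.00139% of the counts.

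Here both lanes were added up per library, then rounded. Genes passing edgeR's filter (minimum count 10), 15097 in quadriceps and 14523 in gastrocnemius, were fitted once per muscle. The quasi-likelihood test of edgeR 4.0.16 (under R 4.3.3, with limma 3.58.1, TMM scaling and robust estimates) was used, with Benjamini-Hochberg adjustment over all genes and a threshold of 0.05. The methods were tested on simulated data. DESeq2 1.42.0 was an alternative, as were other scaling, no filter, lane L001 alone, a replicate block, fits of the compared groups alone, the other sedentary group, and leaving out each library. CPM uses TMM-scaled library sizes. Levels between genes are per kilobase of the longest protein-coding GENCODE transcript of each gene, whichever transcript the muscle used. Called members were named by smallest p, up to 10 a direction, with 12 fixed genes and up to 4 genes per related list; other members were chosen after their values were seen. The members and lists were chosen with earlier results of these data known.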

Additional observations from a re-analysis of the deposited data

Results flagged for a closer look

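In gastrocnemius, 100 groups of 4 libraries were checked for a library far from its group, and chance marks about 1 in 20 such groups; 6 were marked. In Day ZT4 muscle, Dnaja2 read 175 CPM in replicate 4 against 167 to 168 CPM in the others, and Dnajb4 read 69.6 CPM in replicate 3 against 49.3 to 52.1 CPM. Night ZT4 replicate 3 stood high for Hspa4l (6.92 CPM against 5.17 to 5.28 CPM), Hspe1 (40.0 CPM against 34.9 to 35.1 CPM) and Dnajc18 (33.2 CPM against 30.4 to 30.7 CPM), so 3 of the 6 came from this library. Dnajb6 read 113 CPM in Night ZT16 replicate 4 against 119 CPM in the others.

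The response 3 h after the evening run was lower than that after the morning run, by the test of the difference itself, for Serpinh1 (-1.71), Hspa4l (-0.75), Stip1 (-0.55) and Dnajb5 (-0.42). Of the 12 fits without 1 library, Serpinh1 kept its call in 12, Stip1 in 3, Dnajb5 in 2 and Hspa4l in 0. The high Sed ZT16 values enter these differences. Against Sed ZT12 in their place, the evening values were 0.68 for Serpinh1, 0.50 for Hspa4l, 0.42 for Stip1 and -0.33 for Dnajb5. The change between ZT4 and ZT16 differed between schedules, Day minus Night, for Hsp90aa1 (-1.49), Serpinh1 (-1.05), Dnajb4 (-0.91), Hspa4l (-0.82), Dnaja4 (-0.45), Hspe1 (-0.32), Stip1 (-0.31), Dnajc28 (-0.28), Hsp90ab1 (-0.26), Dnajb5 (-0.23), Hspd1 (-0.21), Hspa4 (-0.19) and Cct8 (-0.18). Cct8, Hspa4 and Hspd1 kept these calls in 11, 9 and 6 of the 16 fits without 1 library. All values in brackets are log2 values. Hsp90aa1, Serpinh1 and Hspa4l were high in the same Night ZT16 libraries, replicates 2 and 3.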

How the results depend on the processing

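With 3 or 4 libraries a group, small changes were at the limit of detection, and several counts of called members moved by over 1.5 times. With the compared groups fitted alone, 4 members were called in TM +0h ZT0 muscle, 6 in TM +3h ZT0 muscle, 8 in TM +3h ZT12 muscle and 2 in the difference of the +3h responses. For that difference DESeq2 called 10 and lane L001 alone 1; DESeq2 also called 17 between Day and Night at ZT4 and 2 at ZT16. Against the other sedentary group, 0 were called in TM +0h ZT12 muscle and 22 in TM +3h ZT12 muscle. That control also turned round 9 single values, where the cause was not tested: in TM +0h ZT12 muscle Ahsa1 (-0.01), Hsp90aa1 (-0.06), Hspa4l (-0.39) and Serpinh1 (-0.30), and in TM +3h ZT12 muscle Ahsa1 (0.29), Dnajc11 (0.02), Hsp90aa1 (1.85), Hspa4l (0.50) and Stip1 (0.42). Over all alternatives, 2594 single-gene values kept direction and side of the threshold, 302 lost and 54 gained a call. Leaving out 1 library gave 7 to 11 called members for TM +0h ZT0, 6 to 8 for TM +0h ZT12, 14 to 18 for TM +3h ZT0, 8 to 14 for TM +3h ZT12, 1 to 7 for the difference of the +3h responses, 6 to 10 over the sedentary groups, 1 to 5 for Sed ZT12 against Sed ZT0, 7 to 9 for Sed ZT16 against Sed ZT12, 4 to 8 for Day against Night at ZT4, 0 to 2 at ZT16 and 9 to 15 for the difference of time effects. The difference of the +3h responses was 1 or 2 without most libraries and 7 without TM +3h ZT0 replicate 3.

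Libraries with the same replicate number did not deviate together (correlations of -0.38 to 0.31, and in no comparison all over 0.1), so the numbers only name samples. With a replicate block 9, 9, 21 and 14 members were called in the 4 treadmill comparisons (TM +0h ZT0, TM +0h ZT12, TM +3h ZT0 and TM +3h ZT12), 7 between Day and Night at ZT4 and 11 for the difference of time effects.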
